A study of Homo sapiens with 12 samples.

Results

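The genes described here are the chemokines and chemokine receptors, taken as every protein-coding gene of GENCODE release 44 (GRCh38) whose symbol begins with CCL, CXCL, CCR or CXCR followed by a digit. The rule found 57 of 19951 protein-coding genes: 27 CC ligands, 14 CXC ligands, 10 CC receptors and 6 CXC receptors. H3K4me2, dimethylation of lysine 4 on histone H3, was profiled by ChIP-seq in cells of the human monocytic leukaemia line U-937. The cells were treated for 24 h with the vehicle DMSO, with all-trans retinoic acid (ATRA, a ligand of the retinoic acid receptors) at 0.1 µM, with Corin at 0.1 µM, or with both drugs at 0.1 µM each. Corin is a synthetic compound that inhibits the demethylase and the deacetylases held in the CoREST complex. Each treatment had 2 H3K4me2 libraries and 1 input library, 12 libraries in all, and the deposited data hold 1 peak list for each treatment, so all values below come from a single U-937 line and from 4 pooled lists. With 1 list per treatment no difference between treatments has a replicate check or a p-value, and intervals on shares (95% Wilson) cover counting error only.

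Chemokines are small secreted proteins that direct the migration of leukocytes, and they act through receptors with 7 membrane-spanning helices that couple to inhibitory G proteins. CC and CXC name the spacing of the first cysteines of the ligand. Many ligand genes and several receptor genes lie in tandem clusters that arose by duplication, and in monocytic cells many of them are switched on by inflammatory signals. H3K4me2 marks promoters and enhancers that are active or poised.

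A member's start site was the transcription start of its canonical transcript, and it counted as covered when a peak of a list lay over it. A member's window was its gene body joined with 20 kb on either side of that start. Overlapping or adjoining peaks from the 4 lists were joined into regions, each of which counted as present in every list that had a peak there. The DMSO list held 65172 peaks, the ATRA list 66385, the Corin list 73997 and the combination list 83969. They carry no read totals, so the depth behind a peak is not known from them. Of the 14 monocytic and myeloid marker genes examined, 11, 11, 11 and 8 had a covered start in the DMSO, ATRA, Corin and combination lists, and the starts of CD14, FCGR1A and MPO were uncovered in every list. The lower count with both drugs came from CEBPA, CD33 and LYZ, whose starts lay 5, 7 and 22 bp from a peak of that list. With a peak within 1 kb of the start the marker counts were 13, 13, 12 and 13 of 14. Start sites of the 5 erythroid and of the 5 epithelial markers were covered in no list. T cell markers had 1, 1, 0 and 1 of 5 covered, B cell markers 3, 2, 3 and 3 of 5, and endothelial and fibroblast markers 2, 1, 1 and 1 of 6.

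The promoters of the 6 CXC ligands that attract neutrophils through CXCR1 and CXCR2 are shown first, because they are near relatives in 1 cluster of chromosome 4 and yet differed in their H3K4me2 cover. Each sequence runs from base 110 to base 11 before the RefSeq start site (GRCh38.p14), 5′ to 3′ on the gene's own strand. Capitals mark matches to the motif GGNNTTTCC on either strand (NF-kappa-B, a factor activated by inflammatory signals) and to TATAAA on the gene's strand (TATA box).
CXCL8 (chr4:73740459-73740558, plus strand): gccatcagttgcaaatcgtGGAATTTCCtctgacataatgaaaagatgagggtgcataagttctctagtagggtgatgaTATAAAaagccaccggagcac
CXCL6 (chr4:73836568-73836667, plus strand): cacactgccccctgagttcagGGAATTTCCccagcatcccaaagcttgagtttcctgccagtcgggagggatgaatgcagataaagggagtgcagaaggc
CXCL1 (chr4:73869283-73869382, plus strand): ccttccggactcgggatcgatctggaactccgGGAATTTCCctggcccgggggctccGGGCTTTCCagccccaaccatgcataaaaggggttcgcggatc
CXCL5 (chr4:73998688-73998787, minus strand): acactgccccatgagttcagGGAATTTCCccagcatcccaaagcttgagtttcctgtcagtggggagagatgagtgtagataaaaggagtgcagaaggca
CXCL3 (chr4:74038700-74038799, minus strand): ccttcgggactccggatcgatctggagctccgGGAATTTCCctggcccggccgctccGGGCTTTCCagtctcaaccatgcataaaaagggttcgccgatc
CXCL2 (chr4:74099206-74099305, minus strand): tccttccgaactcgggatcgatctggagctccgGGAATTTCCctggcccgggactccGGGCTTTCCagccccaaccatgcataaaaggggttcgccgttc

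All 6 sequences held the letters GGAATTTCC, between 91 and 69 bases before the start, and CXCL1, CXCL3 and CXCL2 held GGGCTTTCC as well. The start sites of CXCL8, CXCL6, CXCL3 and CXCL2 were covered in all 4 lists, and those of CXCL1 and CXCL5 in none. Compared without gaps at the best shift of at most 5 bases, the stretches of CXCL6 (covered) and CXCL5 (uncovered) were identical at 92 of 99 bases (92.9%). Those of CXCL1 (uncovered) and CXCL3 (covered) were identical at 91 of 100 (91.0%), and CXCL8 had at most 36.4% in common with any of the others. Near-identical promoter stretches of 100 bases thus stood on either side of the line between covered and uncovered starts.

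RefSeq promoters of 250 bases could be matched to 40 of the 57 members. Among the genes without an entry were CCL2, CCL4, CCL5, CCL26, CXCL16, CXCR5, CCR7 and CCR10. The NF-kappa-B letters were found in 10 of the 40 (25.0%), compared with 5.91% of 14654 promoters: the 6 genes above, CCL20, CXCL10, CXCL11 and CXCR4. A TATA box stood in 15 (37.5%, compared with 6.79%), and an interferon response motif, TTCNNTTTC on either strand, in 10 (25.0%, compared with 5.94%). The AP-1 motif TGANTCA was present in 7 (17.5%, compared with 4.67%), the PU.1 motif GAGGAAG in 11 (27.5%, compared with 11.7%) and the C/EBP motif ATTGCNNNA in 3 (7.50%, compared with 4.65%), each on either strand. Paired AGGTCA half-sites spaced by 2 or 5 bases occurred in 0 of these 40 windows and in 0 of all 14654. These matches describe letters in a window, not binding. The 14654 promoters were not matched to the members in base composition, and the 6 CXC ligands above are near relatives.

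Members with and without these letters were found both covered and uncovered. Of the 10 members with the NF-kappa-B letters, 5, 5, 6 and 6 had a covered start in the DMSO, ATRA, Corin and combination lists, compared with 10, 9, 11 and 13 of the 30 without them. Of the 10 with the interferon response letters, 6, 6, 7 and 8 were covered, compared with 9, 8, 10 and 11 of the 30 others. For AP-1 the counts were 5, 4, 5 and 6 of 7, compared with 10, 10, 12 and 13 of 33. For the TATA box they were 6, 5, 7 and 6 of 15, compared with 9, 9, 10 and 13 of 25. For PU.1 they were 5, 4, 5 and 4 of 11, compared with 10, 10, 12 and 15 of 29. For C/EBP they were 0, 0, 0 and 1 of 3, compared with 15, 14, 17 and 18 of 37.

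The whole 250 bases before the start are given for 4 genes whose cover differed between lists or was among the widest: CXCL10 and CXCL11, 2 interferon-induced ligands, and the receptor genes CXCR4 and CCR2. Capitals mark matches to any of the motifs named above, on either strand except for the TATA box.
CXCL10 (chr4:76023498-76023747, minus strand): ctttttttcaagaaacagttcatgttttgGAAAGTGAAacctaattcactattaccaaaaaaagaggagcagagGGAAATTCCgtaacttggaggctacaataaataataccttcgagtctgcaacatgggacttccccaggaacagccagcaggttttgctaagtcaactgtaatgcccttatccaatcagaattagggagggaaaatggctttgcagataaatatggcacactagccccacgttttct
CXCL11 (chr4:76036071-76036320, minus strand): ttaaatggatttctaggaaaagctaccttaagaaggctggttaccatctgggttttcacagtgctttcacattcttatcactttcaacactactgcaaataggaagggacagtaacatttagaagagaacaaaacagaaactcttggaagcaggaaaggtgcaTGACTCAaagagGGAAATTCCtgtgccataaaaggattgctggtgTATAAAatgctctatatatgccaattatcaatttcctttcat
CXCR4 (chr2:136118150-136118399, minus strand): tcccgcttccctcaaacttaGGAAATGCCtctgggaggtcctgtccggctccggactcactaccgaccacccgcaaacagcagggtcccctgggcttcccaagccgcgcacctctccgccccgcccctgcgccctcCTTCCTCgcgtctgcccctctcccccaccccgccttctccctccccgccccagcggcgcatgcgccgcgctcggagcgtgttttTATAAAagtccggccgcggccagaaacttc
CCR2 (chr3:46353861-46354110, plus strand): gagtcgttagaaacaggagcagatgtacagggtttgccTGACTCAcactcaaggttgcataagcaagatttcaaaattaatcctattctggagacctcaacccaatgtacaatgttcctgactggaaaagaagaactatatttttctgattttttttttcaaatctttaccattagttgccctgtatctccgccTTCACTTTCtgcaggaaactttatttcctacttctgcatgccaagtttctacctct

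CXCL10 and CXCL11 both carried GGAAATTCC, 176 to 168 bases before the CXCL10 start and 75 to 67 bases before that of CXCL11. CXCR4 had a TATA box 30 to 25 bases before its start, a PU.1 match and the NF-kappa-B letters GGAAATGCC. CCR2 had an AP-1 match and an interferon response match, TTCACTTTC, 56 to 48 bases before its start.

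With DMSO, H3K4me2 peaks lay over the start sites of 20 of the 57 members (35.1%, interval 24.0 to 48.1). The ATRA list covered 20 (35.1%), Corin gave 25 (43.9%, interval 31.8 to 56.7) and both drugs together 29 (50.9%, interval 38.3 to 63.4). Over all protein-coding genes the share went the other way: 47.3% of starts were covered with DMSO and 48.1% with ATRA, but 38.0% with Corin and 38.0% with both drugs. By this measure the members' share was below that of all genes with DMSO and with ATRA and above it with Corin and with both drugs, although the interval of the Corin share includes the value for all genes and that of the combination lies only just above it. That order depended on asking for a peak over the start itself. With a peak within 1 kb of the start the members' shares were 45.6%, 47.4%, 49.1% and 57.9%, each below the 61.3%, 61.5%, 61.5% and 62.3% of all genes. Start sites were covered in every list for 16 members (28.1%, compared with 30.8% of all genes), in no list for 27 (47.4%, compared with 46.4%), and differed between lists for 14 (24.6%, compared with 22.8%). The combination list covered the most members also when only peaks with a −log10 q of at least 5 were used (17, 19, 24 and 29), when each list was cut to the 65172 strongest peaks (20, 20, 24 and 29), and when a peak within 1 kb of the start sufficed (26, 27, 28 and 33). With peaks up to 1 kb apart joined the members' counts were 21, 21, 25 and 30, while the share of all genes was 58.4%, 58.8%, 58.7% and 59.2%: the lower share of all genes with Corin was not there after joining, and the members' share was below that of all genes in every list.

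**Figure D1:**
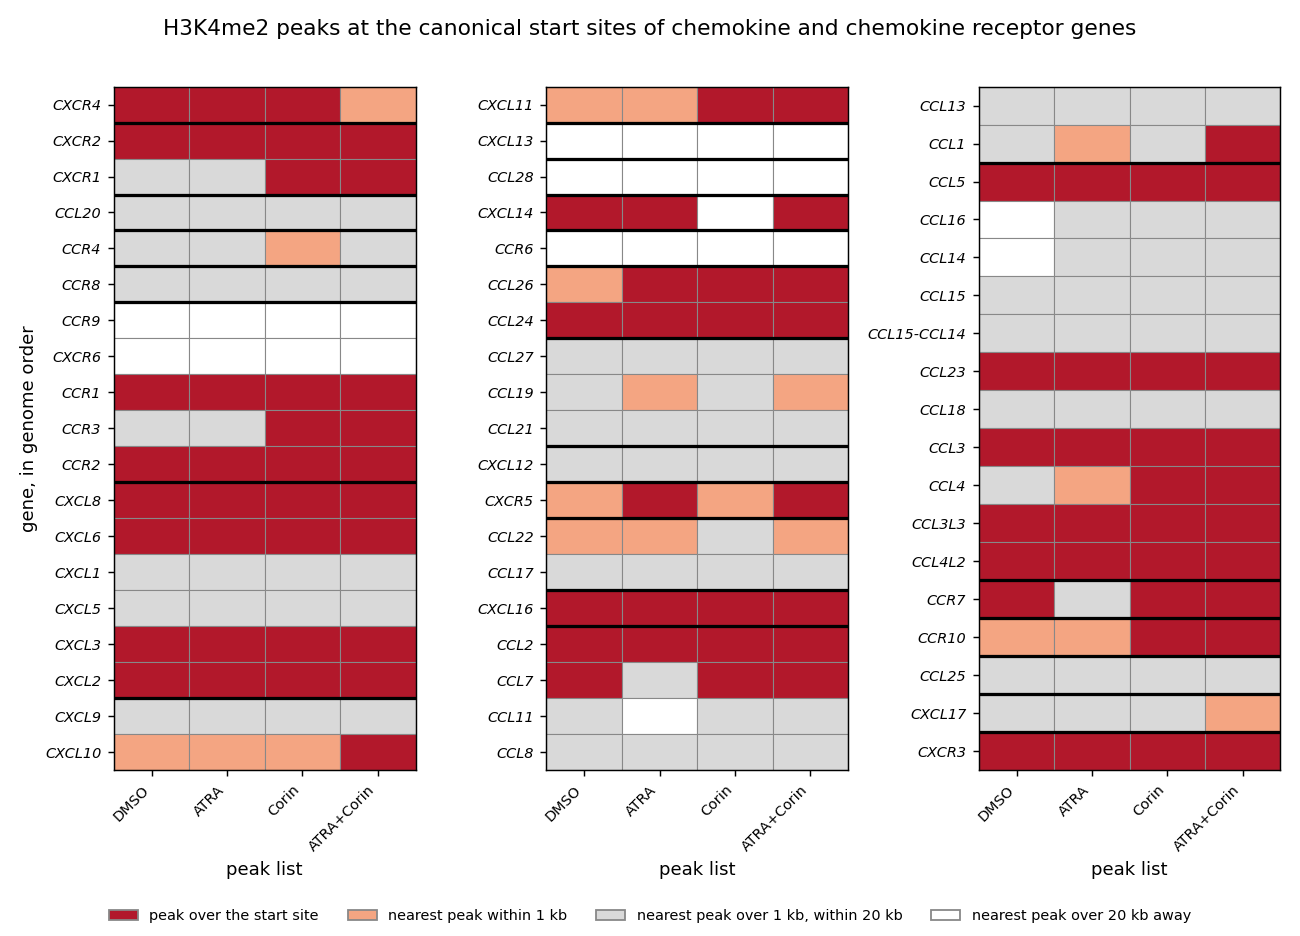
State of the members' canonical start sites in each peak list (1 member is not drawn), in genome order, with thick lines between clusters: dark red marks a peak over the start, orange a nearest peak within 1 kb, grey one within 20 kb and white one farther away. 16 of the rows drawn are dark red throughout.

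Most members have start sites poor in CpG dinucleotides. The median ratio of observed to expected CpG over 500 bp on either side was 0.170 for the members and 0.725 for all genes, and it was under 0.4 for 48 members (84.2%) and for 24.7% of all genes. Among starts under 0.4, peaks lay over 14, 14, 20 and 24 of the 48 members (29.2%, 29.2%, 41.7% and 50.0%) in the DMSO, ATRA, Corin and combination lists. The shares over all 4931 such genes were 15.5%, 16.4%, 16.7% and 17.8%. The members were covered more often than CpG-poor starts in general in each list. Their share with both drugs was above that with DMSO by more than the share of all CpG-poor genes was. When a peak within 1 kb of the start sufficed, these members' shares were 41.7%, 43.8%, 47.9% and 56.2%. Those of all CpG-poor genes were then 21.0%, 21.7%, 22.3% and 24.4%. Of these 48 members, 25.0% were covered in every list, 50.0% in no list, and 25.0% differed between lists. Over all CpG-poor genes these shares were 13.3%, 80.0% and 6.69%, unlike the near-equal shares of members and all genes above. The cutoff of 0.4 was chosen after the data had been seen.

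By class, CC receptors had 3, 2, 5 and 6 of 10 starts covered in the DMSO, ATRA, Corin and combination lists. CC ligands had 8, 8, 10 and 11 of 27. CXC ligands had 6, 6, 6 and 8 of 14, and CXC receptors 3, 4, 4 and 4 of 6. The intervals of these small classes overlap widely, for example 10.8 to 60.3% for the CC receptors with DMSO and 31.3 to 83.2% with both drugs.

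Between single lists, ATRA gained cover over the start sites of CCL26 and CXCR5 and lost it over CCL7 and CCR7 compared with DMSO. That is 2 members gained, where 4.69% of all genes gained cover, and 2 lost, where 3.89% of all genes lost it. Corin gained 6 compared with DMSO (CXCR1, CCR3, CXCL11, CCL26, CCL4 and CCR10; 2.32% of all genes gained cover) and lost CXCL14 (11.6% of all genes lost it). The combination gained 10 compared with DMSO (those 6 and, among others, CXCL10, CXCR5 and CCL1; 2.69% of all genes gained) and lost CXCR4 (11.9% of all genes lost). Compared with ATRA alone it gained 10, among them CXCR1, CCR3, CXCL10, CXCL11, CCL7, CCL1, CCL4 and CCR7 (1.99% of all genes gained) and lost CXCR4 (12.0% lost). Compared with Corin alone it gained 5, among them CXCL10, CXCL14, CXCR5 and CCL1 (5.61% gained) and lost CXCR4 (5.62% lost). Among all CpG-poor starts, 0.872%, 1.22% and 1.07% lost cover with ATRA, Corin and both drugs against DMSO. Cover was gained over 1.78%, 2.47% and 3.39% of them. The 48 CpG-poor members lost 2, 0 and 0 and gained 2, 6 and 10. Against ATRA alone, 1.34% of all CpG-poor starts lost cover with both drugs. Among the 10 members that the combination gained against DMSO, CXCL10, CXCL11, CCL26, CXCR5 and CCR10 had a DMSO peak within 1 kb of the start. That peak lay 817, 476, 115, 526 and 67 bp away, and the other members gained had none within 1 kb. With peaks up to 1 kb apart joined, 0.657% and 0.456% of all genes lost cover with Corin and with both drugs against DMSO. These comparisons share lists and are not independent of each other.

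The loss over CXCR4 was a matter of 109 bp. CXCR4, the receptor of CXCL12, had peaks of 5195, 6770 and 8505 bp over its start with DMSO, ATRA and Corin, and with both drugs the nearest peak ended 109 bp from the start, with peaks on both sides. With peaks up to 1 kb apart joined, CXCR4 was covered in every list, and the combination then gained 9 and lost 0 compared with DMSO. Such a gap at the start, with peaks within 1 kb on both sides, was seen for 1 member in each list (CCL26 with DMSO, CXCL10 with ATRA and with Corin, CXCR4 with both drugs). Over all genes the share of gapped starts was 11.2%, 10.8%, 20.7% and 21.4%.

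**Figure D2:**
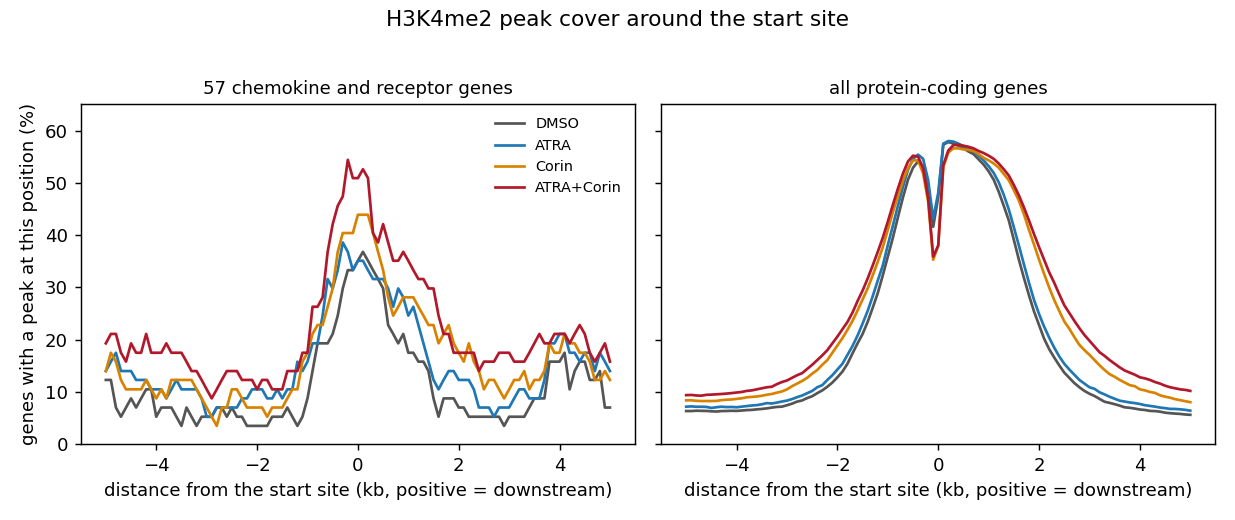
Share of genes with a peak at each distance from the start site, in 100-bp steps along the direction of transcription, for the 57 members (left) and all protein-coding genes (right), 1 line per list. The members' curves are high near the start, where at distance 0 the DMSO and ATRA lines meet at 35.1%, the Corin line is at 43.9% and the combination line at 50.9%, while the curves of all genes dip at the start.

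Cover of the members was narrower than that of all genes. At 500 bp downstream of the start 17, 18, 19 and 24 members had a peak in the DMSO, ATRA, Corin and combination lists (29.8% to 42.1%, compared with 56.4% to 57.1% of all genes). At 1 kb downstream the counts were 10, 14, 16 and 20 (17.5% to 35.1%, compared with 52.2% to 55.2% of all genes). At 2 kb they were 4, 7, 10 and 10 (7.02% to 17.5%, compared with 22.8% to 37.7%). Upstream by 500 bp the counts were 12, 17, 17 and 24 (21.1% to 42.1%, compared with 52.9% to 55.2%). Each drug list covered more members than the DMSO list at these 4 distances, and at 2 kb downstream the share of all genes was higher in each drug list as well.

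For the 16 members covered in every list, the peak over the start had a median width of 1675 bp with DMSO, 1848 bp with ATRA, 2689.5 bp with Corin and 2715 bp with both drugs. The median ratio to the DMSO width was 1.10, 1.14 and 1.44, and over the 6146 genes covered in every list it was 1.04, 1.14 and 1.18. With both drugs the peak was more than 2 times as wide as with DMSO for 6 of the 16 (37.5%, compared with 9.78% of the 6146). Those 6 were CXCR2, CCR1, CCR2, CXCL8, CCL24 and CCL4L2. The DMSO peak of CCL4L2 had a −log10 q of only 3.73.

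**Figure D3:**
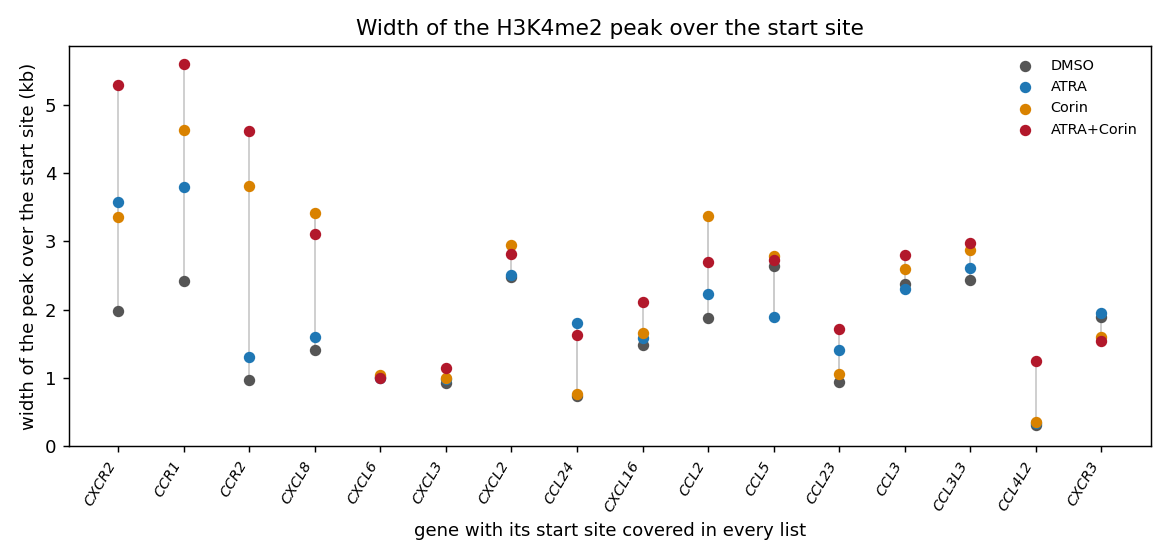
Width in kb of the peak over the start site, 1 column per member covered in every list, 1 point per list. The combination points of CXCR2, CCR1 and CCR2 lie at 5288, 5598 and 4622 bp, above the points of the other lists, whereas those of CXCR3 and CXCL6 lie close to or below their DMSO points.

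Counted over the union of the member windows (2030 kb), 122 regions were present with DMSO, 143 with ATRA, 147 with Corin and 188 with both drugs, and peaks covered 143, 191, 212 and 269 kb. Relative to DMSO the covered length was 1.34, 1.48 and 1.88 times as large, compared with 1.13, 1.28 and 1.45 times over the windows of all genes. Of the 207 member regions, 109 (52.7%) were in all 4 lists, 36 (17.4%) in the combination list only and 0 in the DMSO list only. The shares over all regions of the genome were 51.2%, 16.3% and 2.20%. The median member window held 2, 3, 3 and 4 regions, compared with 2, 2, 3 and 3 over all genes.

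The ATRA list had 26 of the 207 regions that DMSO lacked (12.6%, compared with 10.8% of the 62120 regions in the windows of all genes), and lacked 5 that DMSO had (2.42%, compared with 5.0%). For Corin these counts were 33 gained (15.9%, compared with 16.5%) and 8 lost (3.86%, compared with 5.30%). For the combination they were 67 gained (32.4%, compared with 30.9%) and 1 lost (0.483%, compared with 3.95%). Against ATRA the combination gained 54 (26.1%, compared with 25.4%) and lost 9 (4.35%, compared with 4.20%), and against Corin it gained 51 (24.6%, compared with 21.9%) and lost 10 (4.83%, compared with 6.08%). The shares of gained regions were thus close to those over all genes. Longer lists can hold more regions, and with the 65172 strongest peaks of each list, the combination gained 39 and lost 6 against DMSO, gained 28 and lost 16 against ATRA and gained 33 against Corin, and Corin gained 19 against DMSO. At least 1 region was gained in 25 member windows with ATRA (43.9%, compared with 27.7% of all genes), in 26 with Corin (45.6%, compared with 37.6%) and in 41 with both drugs (71.9%, compared with 51.1%), each against DMSO. At least 1 was lost in 7 (12.3%, compared with 15.7%), 9 (15.8%, compared with 16.4%) and 1 (1.75%, compared with 12.8%). For the combination against ATRA, 35 windows gained a region (61.4%, compared with 46.6%) and 9 lost one (15.8%, compared with 13.3%). Against Corin, 39 gained (68.4%, compared with 42.8%) and 13 lost (22.8%, compared with 18.6%). Neighbouring members share regions, so windows are not independent of each other.

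**Figure D4:**
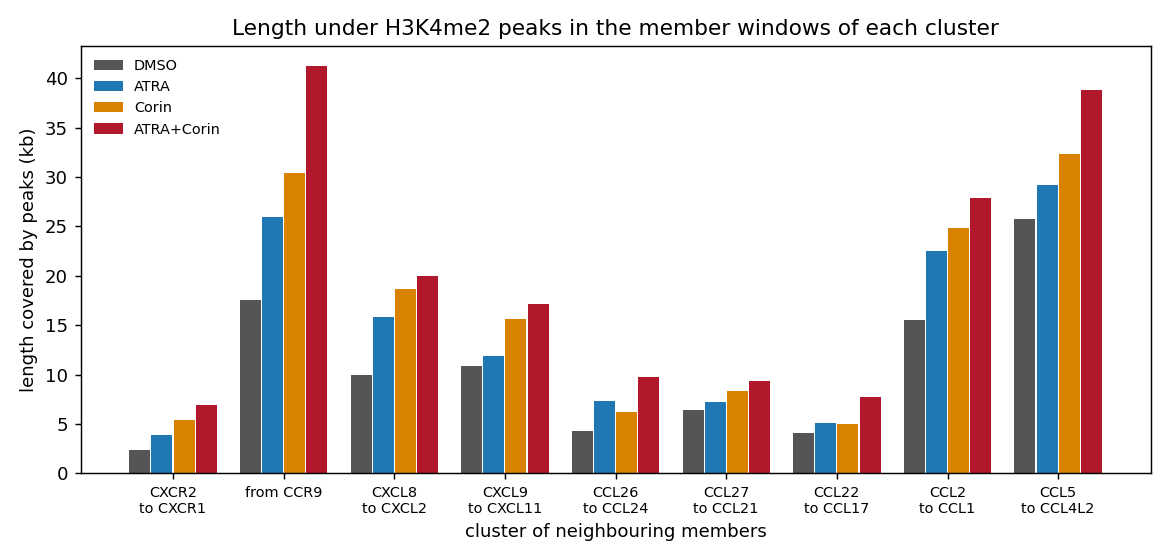
Length in kb under H3K4me2 peaks in the joined member windows of each cluster of neighbouring members, 1 bar per list. The bar of the combination list is the tallest in each of the 9 clusters, from 6.93 kb for CXCR2 to CXCR1 up to 41.2 kb for the chromosome 3 receptor cluster that begins with CCR9.

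Members whose start sites lay at most 500 kb apart were chained into clusters, which gave 9 clusters with 41 members and left 16 members alone. The receptor genes are described first. The chromosome 3 cluster that begins with CCR9 and holds CXCR6, CCR1, CCR3 and CCR2 had 15, 18, 21 and 25 regions in the DMSO, ATRA, Corin and combination lists, and 17.5, 25.9, 30.4 and 41.2 kb under peaks. The combination gained 10 regions and lost 0 against DMSO there.

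CCR1, a receptor of CCL3 and CCL5 on monocytes, had a peak of 2414, 3792, 4630 and 5598 bp over its start (chr3:46201711-46208313, minus strand). The fold enrichment over input that the authors' peak caller gave at its summit was 14.0, 34.7, 18.3 and 45.7, where the median peak of each list had 6.79, 8.38, 6.67 and 6.90. These deposited folds, and the −log10 q values below, describe a peak within its own list. The CCR1 peak stood well above the median of each list, and it was wider in each drug list than with DMSO. A region at chr3:46201855-46203506, over an exon of CCR1 and 4807 bp from its start, was present with both drugs only, with a −log10 q of 22.0 where the median of that list was 14.2.

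CCR2, the receptor of CCL2 (chr3:46353864-46360940, plus strand), had start peaks of 970, 1311, 3804 and 4622 bp. The widths fell into a narrow pair, DMSO and ATRA, and a wide pair, Corin and the combination. Its window held 4, 4, 4 and 7 regions with 5776, 8636, 10067 and 14654 bp covered.

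CCR3, the eotaxin receptor, has an annotated gene body (chr3:46130890-46266706) that spans CCR1, so its 11, 14, 14 and 16 regions include the 5, 7, 6 and 8 of the CCR1 window. Its own start was uncovered with DMSO and ATRA (nearest peak at 5620 and 5473 bp), and had a peak of 351 bp with Corin and of 860 bp with both drugs. The Corin peak was weak, with a −log10 q of 2.14. With the lists cut to equal length CCR3 was no longer gained with Corin. CCR9 and CXCR6, receptors known from gut and tissue lymphocytes, had 0 regions in their windows in every list, and their nearest peaks were at least 43809 and 28503 bp away.

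The pair of interleukin-8 receptor genes on chromosome 2 differed from each other. CXCR2 was covered in every list, by peaks of 1983, 3572, 3353 and 5288 bp. CXCR1 was uncovered with DMSO and with ATRA, where the nearest peak was 19577 and 19539 bp away, and had a peak of 1225 bp with Corin and 606 bp with both drugs. CXCR1 thus had cover in the 2 lists with Corin and in neither list without it.

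Among receptors that stand alone, CXCR3, the receptor of CXCL9, CXCL10 and CXCL11, was covered in every list by peaks of 1895, 1955, 1597 and 1541 bp, a narrow range. CXCR5, a receptor of follicular lymphocytes, was covered with ATRA (3192 bp) and with both drugs (9560 bp), and its nearest peak lay at 526 bp with DMSO and 367 bp with Corin. The 9560 bp peak also covered the start of a lncRNA. CXCR5 cover was therefore present in the lists with ATRA and absent from those without it. CCR7, the lymph node homing receptor, showed the opposite for ATRA alone: peaks of 350, 968 and 599 bp with DMSO, Corin and both drugs, and no peak nearer than 3642 bp with ATRA. The DMSO peak of CCR7 had a −log10 q of 4.41, below the median of 13.1.

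CCR10, a receptor of skin and mucosal lymphocytes, lies beside PLEKHH3, and its annotated gene body overlaps CNTNAP1. Peaks of 4581 and 4619 bp reached over the CCR10 start with Corin and with both drugs, with deposited folds of 34.3 and 43.1. These peaks lay almost wholly downstream, by 4507 and 4536 bp, and passed the start by only 73 and 82 bp. With ATRA the nearest peak, of 3763 bp and with a fold of 68.6, ended 763 bp downstream of the CCR10 start. With DMSO the nearest peak, 67 bp downstream, was a separate weak one of 510 bp with a fold of 2.40 and a −log10 q of 0.877. Beyond it the DMSO list held a peak of 3664 bp with a fold of 45.1. A lncRNA start lies under the Corin and combination peaks. The CCR10 window held 2, 2, 3 and 2 regions. CCR4, CCR6 and CCR8 were uncovered in all lists. CCR6 had 0 regions, CCR4 had 1, 1, 2 and 1, and CCR8 had 2, 2, 3 and 4.

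On chromosome 4, the cluster from CXCL8 to CXCL2 held 11, 15, 17 and 20 regions, with 10.0, 15.8, 18.7 and 20 kb covered. CXCL8, which encodes interleukin-8, had start peaks of 1410, 1597, 3420 and 3107 bp, the wider ones in the 2 lists with Corin. CXCL6 had peaks of 1012, 991, 1043 and 994 bp, with almost no difference between lists. CXCL3 had 920, 978, 994 and 1137 bp and CXCL2 2475, 2503, 2948 and 2815 bp. Of the 75-base words within 1 kb of the start, CXCL6 had 6.43% in common with the 20 kb on either side of the CXCL8 start, and CXCL2 and CXCL3 each had 5.40% in common with the other's surroundings. Reads at CXCL6, CXCL2 and CXCL3 could therefore in part be placed elsewhere. This also limits the contrasts of CXCL6 with CXCL5 and of CXCL3 with CXCL1. Only the surroundings of other members were searched for these words, and close neighbours such as CXCL6 and CXCL1 were not compared.

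CXCL1 and CXCL5 lacked start cover in all lists. The nearest peak was 3393, 3002, 3220 and 3358 bp from CXCL1. It was 19970, 19904, 19842 and 10703 bp from CXCL5. A region within the CXCL6 gene, chr4:73844384-73845091, in an intron 7706 bp from the start, was present in the 3 drug lists and absent with DMSO. Another, chr4:74083105-74084090, 15105 bp from the CXCL2 start and between protein-coding genes, had the same pattern. One more, chr4:74056412-74057865, 17723 bp from CXCL3, was present with Corin and with both drugs.

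The interferon-induced ligands CXCL9, CXCL10 and CXCL11, which attract activated T cells through CXCR3, formed a cluster with 9, 12, 12 and 12 regions and 10.9, 11.9, 15.6 and 17.1 kb covered. None of the 3 starts was covered with DMSO or with ATRA. The nearest peak to the CXCL10 start lay 817 bp away with DMSO, 2 bp with ATRA and 413 bp with Corin, and a peak of 1620 bp covered it with both drugs. The ATRA value shows how narrow that call is, since 2 bp separate the CXCL10 start from a peak's edge. CXCL11 was uncovered with DMSO and ATRA (476 and 352 bp) and had peaks of 1115 bp with Corin and 971 bp with both drugs. CXCL9 was uncovered in every list, with its nearest peak at 3379, 3596, 3795 and 3495 bp.

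Of the CXC ligands that stand alone, CXCL16, the ligand of CXCR6, was covered in every list by peaks of 1480, 1590, 1657 and 2112 bp, which also lay over the start of ZMYND15. Its window held 7, 8, 7 and 12 regions. CXCL17, a mucosal chemokine, had an uncovered start in all lists but its window gained more regions with both drugs against DMSO (6) than that of any other member. The window held 2, 2, 3 and 8 regions and 658, 1784, 1648 and 9046 bp covered. The peak nearest the CXCL17 start lay 1697, 1506 and 1558 bp away with DMSO, ATRA and Corin, and 91 bp away with both drugs. A region 8776 bp upstream of that start, chr19:42451722-42454402, had a −log10 q of 4.67 with ATRA and 26.9 with both drugs and was absent from the other 2 lists. A neighbouring region, chr19:42449276-42450575, was present with Corin and with both drugs.

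CXCL14 was covered with DMSO (771 bp), ATRA (197 bp) and both drugs (783 bp), and the nearest peak of the Corin list lay 52338 bp from its start. The DMSO, ATRA and combination peaks of CXCL14 had −log10 q values of 8.29, 3.58 and 9.38, below the medians of their lists. When a −log10 q of at least 5 was asked for, CXCL14 was uncovered with ATRA as well as with Corin. CXCL12, the ligand of CXCR4, was uncovered throughout, with its nearest peak at 8202, 8312, 17818 and 17471 bp. Its window held the only region lost by the combination against DMSO, chr10:44393299-44394588, which was present with DMSO and ATRA. The −log10 q of that region was 2.96 with DMSO, below the list median of 13.1, and 11.1 with ATRA. When a −log10 q of at least 5 was asked of the DMSO peak, 0 regions were lost. CXCL13 had 0 regions in every list.

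The CC ligands of chromosome 17 fell into 2 clusters. The monocyte chemoattractant cluster from CCL2 to CCL1 had 13, 14, 14 and 20 regions and 15.5, 22.5, 24.8 and 27.9 kb covered. CCL2, the main monocyte chemoattractant and ligand of CCR2, had start peaks of 1870, 2230, 3375 and 2701 bp, and its window held 7, 7, 8 and 10 regions. CCL7, a second ligand of CCR2, had peaks of 381, 940 and 471 bp with DMSO, Corin and both drugs, and no peak nearer than 13633 bp with ATRA. The DMSO peak of CCL7 had a −log10 q of 4.82, below the median of its list, and it fell away when a −log10 q of at least 5 was asked for. CCL1, a ligand of CCR8, was covered with both drugs only, by a peak of 555 bp with a −log10 q of 5.81. Its nearest peak lay at 2441, 990 and 1558 bp in the DMSO, ATRA and Corin lists. CCL11, CCL8 and CCL13 were uncovered in every list.

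The cluster from CCL5 to CCL4L2 (11 genes) held 22, 26, 26 and 33 regions and 25.7, 29.2, 32.3 and 38.8 kb under peaks. CCL5, which encodes RANTES, had start peaks of 2637, 1888, 2778 and 2729 bp, the narrowest with ATRA. CCL3, a ligand of CCR1, had 2374, 2299, 2601 and 2807 bp. The widths of CCL3 and CCL5 thus differed far less between lists than those of the receptor genes CCR1 and CCR2.

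CCL4, also known as MIP-1 beta, was uncovered with DMSO, with its nearest peak at 4025 bp. With ATRA the nearest peak lay 272 bp away, and with Corin and with both drugs peaks of 896 and 917 bp covered the start. Its near copy CCL4L2 was covered in every list, by peaks of 304, 340, 351 and 1253 bp. The DMSO peak of CCL4L2 was weak, with a −log10 q of 3.73, and it fell away when a −log10 q of at least 5 was asked for. Each of the 2 genes has 23.7% of the 75-base words within 1 kb of its start in common with the 20 kb on either side of the other's start, so their cover is uncertain where reads could be placed at either copy. CCL3L3, the copy of CCL3, had peaks of 2436, 2605, 2870 and 2974 bp. Without CCL3L3, CCL4L2 and the read-through gene CCL15-CCL14 the counts of covered members were 18, 18, 23 and 27.

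CCL23, a ligand of CCR1, had start peaks of 943, 1403, 1058 and 1722 bp, wider in the 2 lists with ATRA. CCL16, CCL14, CCL15, CCL15-CCL14 and CCL18 were uncovered in all lists. CCL16 and CCL14 had 0 regions with DMSO, and 1 region, chr17:35975738-35976419, was present near both in each drug list.

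CCL26 and CCL24, the eotaxins that bind CCR3, lie together on chromosome 7, in windows that held 5, 7, 4 and 9 regions. CCL24 had start peaks of 734, 1808, 760 and 1624 bp, the wide ones in the 2 lists with ATRA. The deposited fold of the CCL24 peak with ATRA was 33.3, where the median of that list was 8.38. CCL26 was missed by 115 bp with DMSO and had peaks of 1594, 2750 and 2418 bp with ATRA, Corin and both drugs. With peaks up to 1 kb apart joined CCL26 was covered in every list. A region 9641 bp from its start, chr7:75762036-75762570, was present with both drugs only, with a −log10 q of 18.3.

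CCL22 and CCL17, ligands of CCR4, were uncovered in all lists, with 6, 7, 6 and 7 regions. In the combination list a region over an exon of CCL22, chr16:57365992-57367103, had the highest −log10 q of the member regions gained against DMSO, 30.6, and it was also present with Corin. The homeostatic ligands CCL27, CCL19 and CCL21 on chromosome 9 were uncovered, with 3, 4, 3 and 4 regions. A region 78 bp from the CCL19 start, chr9:34691354-34691930, was present with ATRA and with both drugs. CCL20, CCL25 and CCL28 were uncovered as well, with 2 to 3, 3 and 1 regions.

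Other genes of the chemokine system were counted in the same way. The 6 other chemokines examined (XCL1, XCL2, CX3CL1, PF4, PF4V1 and PPBP) had 0 starts covered in each list. Of 7 other receptors, CX3CR1, ACKR3 and CCRL2 were covered in every list and the rest in none. Of 14 genes of receptor signalling, 10, 10, 9 and 8 starts were covered, and of 10 genes of the NF-kappa-B pathway 10, 10, 9 and 6, where the share of all genes was 47.3%, 48.1%, 38.0% and 38.0%. The starts of ARRB2, REL, RELA, TNFAIP3 and NFKBIA, covered with DMSO, lay 7, 12, 8, 24 and 64 bp from a peak with both drugs. With a peak within 1 kb of the start, all 14 signalling genes and all 10 NF-kappa-B genes were covered in every list. In windows, the other chemokines had 7, 8, 10 and 13 regions, the other receptors 15, 19, 22 and 32, the signalling genes 70, 75, 79 and 114, and the NF-kappa-B genes 32, 35, 41 and 45. Region counts were highest with both drugs in each of these groups, as in the chemokine genes. The same held over the windows of all genes, with 38108, 41718, 45053 and 54869 regions. The difference between these groups and the members was not tested.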

How the data were processed

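H3K4me2 was profiled in U-937 cells under 4 treatments, with 2 H3K4me2 libraries and 1 input each; groups come from the sample titles. The analysed files are 4 deposited peak lists, each an overlap-reproducible optimal set made from the libraries of 1 treatment against its input, so peaks are pooled calls. Trimmomatic, Bowtie2, Picard, MACS2 and build hg38 are named, per the submitters' processing notes; their versions and thresholds are not given in the sources used here. Per peak the authors deposited a score (10 times the −log10 p, capped), a fold enrichment over input at the summit, a −log10 p and a −log10 q. Positions were the main data; fold and −log10 values only described, ranked or filtered peaks within a list. Peak lists give no read depth.

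Start sites and gene bodies came from GENCODE 44 (Ensembl canonical, basic transcripts, chromosomes 1 to 22 and X). As a check of the build, 0 peaks ran past a chromosome end, and DMSO peaks covered 47.3% of start sites but 4.60% of positions shifted by 1 Mb. Coordinates are on GRCh38, counted from 1. Among the 30000 lowest peak numbers of a list, 16 to 22 were missing; the peaks left out are not analysed here, so an uncovered start means no peak in the analysed list. Promoters came from RefSeq (GRCh38.p14). Python 3.11.15 with numpy 2.4.6, statsmodels 0.14.6 and matplotlib 3.10.9 was used, and the counting was tested on simulated peaks.

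No test was run between treatments. Shares have 95% Wilson intervals. The settings varied were the threshold (a −log10 q of at least 5), lists of equal length, peaks within 1 kb joined, a 1 kb tolerance, any basic start site, windows of 10 and 50 kb, windows without gene bodies, and 50% overlaps. Genes were described in full when covered in at least 1 list or differing between lists, with CXCL8, CCL2, CCL3, CCL4, CCL5, CXCL10, CXCL16, CCR1, CCR2, CCR7, CXCR1, CXCR2 and CXCR4 whatever their values and the 3 windows per contrast that gained or lost most; regions were named from the 3 gained and 3 lost with the highest −log10 q per contrast, and not all of these are described. One member is counted in the totals but is not reported here by name. A few regions and genes outside that rule were chosen after their values were seen: those near CCL19 and CCL16. The members and lists were chosen with earlier results of these data known. The CpG cutoff, the 75-base words and the removal of near copies were chosen after seeing the data.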

Additional observations from a re-analysis of the deposited data

How the results depend on the processing

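Each treatment has 1 pooled list, so no difference was checked across replicates and neither library could be left out. No paired analysis was possible because each list pools both replicates of its treatment and carries no replicate numbers. Over all alternatives 97 values of the main counts stayed within 1.5 times and 55 moved further. None of the start-cover counts moved further. The 20 covered starts with DMSO and the 29 with both drugs themselves lie within 1.5 times of each other. Staying within that limit therefore does not bear on the difference between lists. All 16 profile counts at a −log10 q of at least 5 stayed within 1.5 times. Gained and lost counts depended most on how peaks are matched. In the order ATRA, Corin and combination against DMSO, then combination against ATRA and against Corin, single peaks at 50% reciprocal overlap gave 76, 100, 131, 101 and 92 gained and 55, 77, 73, 64 and 56 lost. Single peaks at 50% overlap gave 68, 94, 123 and 88 gained for the first 4, and 15, 18 and 5 lost against DMSO and 17 against Corin. Asking for a −log10 q of at least 5 only where the peak is present gave 14, 12, 33, 24 and 17 gained and 2, 3, 0, 4 and 0 lost. Asked of every peak, it gave 32 gained by the combination against ATRA and 32 against Corin, with 2 lost for ATRA against DMSO, 3 for the combination against DMSO and 2 against Corin. Lists of equal length gave 19 gained for Corin against DMSO, 39, 28 and 33 for the combination against DMSO, ATRA and Corin, and 6 and 16 lost against DMSO and ATRA. Joined peaks gave 20 gained for Corin, 31, 22 and 21 for the combination, and 5 and 4 lost against ATRA and Corin. Windows of 10 kb gave 3 lost with ATRA. Windows of 50 kb held 194, 215, 234 and 291 regions, with 52 gained by Corin, 86 gained by the combination against ATRA, and, among lost regions, 13 for ATRA, 2 for the combination against DMSO and 16 against Corin. The causes were not tested, beyond the smaller or larger windows and fewer peaks that these settings use by construction. The combination had the most gained regions against DMSO in each setting run.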
